A study of Mus musculus with 18 samples.

Results

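The platelet-derived growth factor (PDGF) genes Pdgfa, Pdgfb, Pdgfc, Pdgfd, Pdgfra and Pdgfrb were followed through osteoblast differentiation of O9-1 cells, a neural crest (NC) line derived from mouse embryos. They were chosen by name as the 4 ligand genes and 2 receptor genes of the PDGF family, and make up 6 of the 55335 genes counted. All cells were labelled wild type and all were cultured in osteoblast differentiation medium. At d2.5 and at d5 of differentiation the groups were Ctrl+vehicle (control siRNA, no FGF2), Ctrl+FGF2 (control siRNA with fibroblast growth factor 2) and Y/T dKD+FGF2 (siRNA against Yap and Taz, with FGF2), with 3 libraries in each. There was no knockdown without FGF2, so the knockdown was read only in cells that also received FGF2. Since O9-1 is a single line and no source states whether replicates were separate cultures, p-values measure the spread between these libraries, which may be technical. The comparisons ask how FGF2 changes the RNA of these genes and how lowering Yap and Taz changes it in the presence of FGF2.

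PDGFs are secreted dimers that bring together 2 receptor chains, each a transmembrane tyrosine kinase, and thereby switch on the Ras-ERK, PI3K-Akt and phospholipase C-gamma routes. PDGF-A and PDGF-C act through the receptor chain encoded by Pdgfra, PDGF-D mainly through that encoded by Pdgfrb, and PDGF-B through either. PDGF-C and PDGF-D are secreted as latent proteins and bind their receptors only after a protease has removed an inhibitory domain. Pdgfra is known for its role in NC cells that build the face and skull, and Pdgfrb for its role in mesenchymal cells and in the mural cells of blood vessels.

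The libraries held between 10377151 and 14698525 counts on genes (median 12330911). Levels are given as CPM, that is counts relative to the library total, with totals adjusted by TMM over the 18 libraries, and with the SD over 3 libraries. Changes are log2 fold changes with standard errors (SE) from edgeR's quasi-likelihood test of the 9 libraries of each day, and a gene was called at a Benjamini-Hochberg adjusted p under 0.05 over all genes tested. All adjusted p-values below are from that test. The siRNA targets were lower in the libraries labelled Y/T dKD+FGF2 than in Ctrl+FGF2 on both days. Yap1, which encodes Yap, stood at 51.9% of its Ctrl+FGF2 mean at d2.5 and at 46.2% at d5 (log2 fold changes -0.96 and -1.12). Wwtr1, which encodes Taz, stood at 61.2% and 57.7% (-0.72 and -0.80). Wwtr1 was at 158% of vehicle with FGF2 at d2.5, and against Ctrl+vehicle it was at 97.0% in Y/T dKD+FGF2 that day (adjusted p = 0.122). The knockdown was thus partial at the RNA level.

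The labelled cell type was checked against marker genes. Of 8 NC markers, Sox10 and Foxd3 had at most 3 counts in every library and Ngfr at most 5, with 0 in every d2.5 library with FGF2. The other 5 (Tfap2a, Twist1, Snai2, Ets1 and Pax3) were detected in every library. Osteoblast markers summed to between 13247 and 13407 CPM in Ctrl+vehicle at d2.5, and to between 31098 and 33113 at d5. With FGF2 they summed to between 2299 and 2426 CPM at d2.5 and between 15858 and 17613 at d5. In Y/T dKD+FGF2 they summed to between 2163 and 2299 CPM and between 21893 and 23256. These sums are mostly Col1a1, the collagen gene, with means of 12636, 2203 and 2009 CPM at d2.5 and 31912, 16646 and 21837 CPM at d5 in the order vehicle, FGF2 and knockdown. Other genes of the list did not all follow it. Runx2, a master factor of osteoblasts, had means of 164, 92.1 and 98.7 CPM at d2.5 but 137, 179 and 199 CPM at d5. Sp7, another such factor, had means of 182, 26.1 and 36.0 CPM at d2.5 and 35.8, 44.5 and 70.1 CPM at d5. The matrix gene Ibsp had 206, 41.1 and 78.8 CPM at d2.5 and 114, 33.1 and 163 CPM at d5. Alpl had 115, 0.140 and 0.105 CPM at d2.5 and 162, 54.5 and 93.3 CPM at d5. Bglap, with at most 15 counts in a d2.5 library, had 2.69, 0.382 and 1.89 CPM at d5. Ibsp, Alpl and Bglap were lower in Ctrl+FGF2 than in Ctrl+vehicle on both days, as Col1a1 was. Endothelial markers were near absent, with 5 of 7 (Cdh5, Kdr, Tek, Emcn and Tie1) at 3 counts or fewer in every library and a sum of at most 4.28 CPM. Of the blood cell markers, 4 of 6 (Ptprc, Itgam, Adgre1 and Pf4) were at 3 counts or fewer in every library, with sums up to 8.66 CPM, and glial markers summed to at most 3.80 CPM. Chondrocyte markers summed to between 704 and 924 CPM in Ctrl+vehicle at d2.5, against 117 to 129 CPM in Ctrl+FGF2 and 112 to 120 CPM in Y/T dKD+FGF2. At d5 they summed to between 222 and 327, 324 and 432, and 393 and 403 CPM in the same order. The genes of this list did not move together at d5. Acan (means 12.5, 63.1 and 43.7 CPM) and Sox9 (44.9, 83.8 and 62.5 CPM) were higher with FGF2. Col9a1 was lower (2.98, 0.533 and 0.900 CPM), and Col2a1 (213, 236 and 293 CPM) overlapped between Ctrl+vehicle and Ctrl+FGF2. At d2.5 Col2a1 had means of 460, 0.985 and 2.96 CPM. Matn1 had at most 3 counts in every library.

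With FGF2 at d2.5 every one of the 6 genes was called, against 67.6% of the 13677 genes tested, so this count is to be read against a broad response. Pdgfa and Pdgfb rose (33.5% of all genes did), while Pdgfc, Pdgfd, Pdgfra and Pdgfrb fell (34.1% did). At d5, 4 of the 6 were called, against 47.2% of 13304 genes: Pdgfb and Pdgfra rose (23.5% of all genes did), and Pdgfc and Pdgfd fell (23.7% did). The knockdown moved fewer of them. At d2.5 it called only Pdgfc, which was higher (24.5% of all genes were called, 10.8% higher and 13.6% lower). At d5 it called Pdgfc, which was higher, and Pdgfra, which was lower (31.7% of all genes were called, 15.6% higher and 16.1% lower). Both kinds of comparison use the same Ctrl+FGF2 libraries. For this reason Y/T dKD+FGF2 was also compared with Ctrl+vehicle. That comparison called all 6 genes at d2.5 (69.8% of all genes) and 3 at d5 (41.8%).

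**Figure D1:**
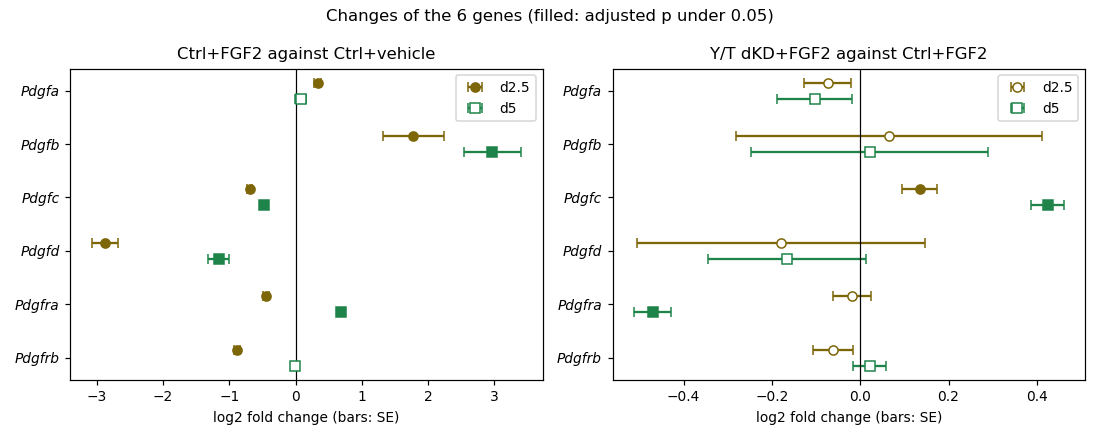
Log2 fold changes (horizontal axis, bars show the SE) of the 6 genes for FGF2 (left) and for the Yap/Taz knockdown in FGF2 (right), with circles for d2.5 and squares for d5. Filled symbols passed an adjusted p of 0.05 in edgeR's quasi-likelihood test. Pdgfra is the gene whose FGF2 change lies on opposite sides of 0 on the 2 days, at -0.45 and 0.69.

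Pdgfc carried most of the ligand RNA. Pdgfc (ENSMUSG00000028019.9) lies at 81036416 to 81214040 on the plus strand of chromosome 3 in GRCm38 and encodes the latent ligand PDGF-C. Its 2 main changes, a fall with FGF2 and a higher level after the knockdown, are described below beside those of the receptor gene Pdgfra, whose changes at d5 had the opposite signs. The 250 bases before the RefSeq start sites of both genes are therefore shown (GRCm38.p6, plus strand, 5′ to 3′), at chr3:81036166-81036415 for Pdgfc and chr5:75152001-75152250 for Pdgfra. Capitals mark GGAATG, the core motif of the TEAD factors through which Yap and Taz bind DNA.
Pdgfc: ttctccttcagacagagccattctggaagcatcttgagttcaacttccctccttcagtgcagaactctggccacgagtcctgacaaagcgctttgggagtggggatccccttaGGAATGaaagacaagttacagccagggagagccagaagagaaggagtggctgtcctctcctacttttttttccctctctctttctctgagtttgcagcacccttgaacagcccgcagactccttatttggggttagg
Pdgfra: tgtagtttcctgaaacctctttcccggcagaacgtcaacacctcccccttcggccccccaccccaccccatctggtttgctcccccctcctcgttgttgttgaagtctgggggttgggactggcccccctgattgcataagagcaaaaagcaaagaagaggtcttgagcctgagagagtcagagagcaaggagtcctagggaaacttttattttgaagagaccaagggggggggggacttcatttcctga

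RefSeq windows from 250 bases before to 50 bases after the start site were searched on both strands for 4 motifs. Windows were at hand for 4 of the 6 genes (Pdgfa with 2 start sites, Pdgfc, Pdgfd and Pdgfra). GGAATG occurred in Pdgfc alone, against 14.7% of all 32851 windows. It had 2 matches there, the first at chr3:81036279-81036284 on the strand of the gene, starting 137 bases before the start site. The other match lay at chr3:81036454-81036459 on the opposite strand, which puts it just inside the transcript and makes it read CATTCC in gccgcctggcggCATTCCtcgccg. The motifs TGANTCA of AP-1 (7.81% of all windows), CCGGAA of ETS factors (14.9%) and TGTGGT of Runx factors (16.8%) were in none of the 5 windows. A match in a window of this length is a description of the letters only, and nothing about binding was read from it or from its absence.

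At d2.5 Pdgfc was at 168, 157 and 169 CPM in the Ctrl+vehicle libraries, at 102, 102 and 104 CPM in Ctrl+FGF2 and at 112, 114 and 114 CPM in Y/T dKD+FGF2. The Ctrl+vehicle libraries were the highest, and the other two groups lay close together without overlap. Pdgfc fell with FGF2 from 165 ± 7.09 to 103 ± 1.20 CPM (SD, n = 3), a log2 fold change of -0.69 (SE 0.04, adjusted p = 1.81e-16). The knockdown left it at 113 ± 0.818 CPM, or 110% of Ctrl+FGF2 (log2 fold change 0.13, SE 0.04, adjusted p = 0.0128). Leaving out each of the 9 libraries in turn gave log2 fold changes from 0.13 to 0.14, and the call was lost in 1 case, without Ctrl+FGF2 replicate 1 (adjusted p = 0.0545). Against Ctrl+vehicle, Y/T dKD+FGF2 was still lower by a log2 fold change of -0.56 (adjusted p = 3.89e-14).

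At d5 Pdgfc was at 354, 341 and 337 CPM in Ctrl+vehicle, at 251, 244 and 242 CPM in Ctrl+FGF2 and at 329, 324 and 339.9 CPM in Y/T dKD+FGF2. Here the Ctrl+FGF2 libraries stood below all others, and the ranges of Ctrl+vehicle and Y/T dKD+FGF2 overlapped. FGF2 lowered it from 344 ± 8.72 to 246 ± 5.15 CPM (log2 fold change -0.47, SE 0.04, adjusted p = 1.37e-08). The knockdown raised it to 331 ± 8.02 CPM, or 135% of Ctrl+FGF2 (log2 fold change 0.42, SE 0.04, adjusted p = 8.96e-08). Y/T dKD+FGF2 against Ctrl+vehicle gave -0.048 with an adjusted p of 0.311 and a 95% interval from -0.12 to 0.03. The knockdown effect was larger at d5 than at d2.5 by 0.29 on the log2 scale (SE 0.05, adjusted p = 0.00021), a difference that passed for 20.9% of all genes. The fall with FGF2 was smaller at d5 by 0.20 (SE 0.05, adjusted p = 0.00178), a difference that passed for 60.9% of all genes.

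Pdgfd, the gene of the latent ligand PDGF-D (ENSMUSG00000032006.15, chromosome 9, 6168584 to 6378850, plus strand), had the steepest fall of the family. At d2.5 the Ctrl+vehicle libraries held 122, 108 and 100 counts, the Ctrl+FGF2 libraries 10, 19 and 16, and the Y/T dKD+FGF2 libraries 15, 11 and 9. Vehicle stood far above both FGF2 groups, and these overlapped. The level went from 7.71 ± 0.726 to 1.05 ± 0.340 CPM with FGF2, that is to 13.7% (log2 fold change -2.88, SE 0.20, adjusted p = 5.39e-14). The knockdown gave -0.18 with an adjusted p of 0.74, and at these counts its 95% interval ran from -0.85 to 0.49, so a moderate change was not detectable in either direction.

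At d5 Pdgfd was at 19.4, 17.0 and 18.3 CPM in Ctrl+vehicle and at 11.2, 6.76 and 6.38 CPM in Ctrl+FGF2, where replicate 1 stood apart from the others. In Y/T dKD+FGF2 it was at 7.06, 8.06 and 6.42 CPM, within the range of Ctrl+FGF2. The group means were 18.2 ± 1.20, 8.12 ± 2.69 and 7.18 ± 0.828 CPM. FGF2 lowered it to 44.5% (log2 fold change -1.16, SE 0.15, adjusted p = 8.04e-06), and the knockdown gave -0.17 (adjusted p = 0.534, 95% interval -0.55 to 0.21). Y/T dKD+FGF2 was below Ctrl+vehicle on both days (log2 fold changes -3.05 and -1.33, adjusted p = 5.53e-14 and 2.85e-06). The FGF2 effect was weaker at d5 by 1.69 on the log2 scale (SE 0.29, adjusted p = 1.13e-05).

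Pdgfa (ENSMUSG00000025856.15, chromosome 5, 138976014 to 138997370, minus strand) encodes PDGF-A, a ligand of the Pdgfra product. Its rise with FGF2 passed the test at d2.5 and not at d5. At d2.5 it was at 38.0, 36.9 and 37.3 CPM in Ctrl+vehicle, at 45.6, 47.4 and 49.3 CPM in Ctrl+FGF2 and at 43.9, 45.3 and 46.7 CPM in Y/T dKD+FGF2. Both FGF2 groups lay above vehicle and overlapped each other. The means were 37.4 ± 0.603, 47.4 ± 1.81 and 45.3 ± 1.43 CPM. The rise with FGF2 to 127% of vehicle was called (log2 fold change 0.33, SE 0.05, adjusted p = 2.1e-06), and the knockdown difference was not (-0.074, adjusted p = 0.331). Y/T dKD+FGF2 was above Ctrl+vehicle by 0.26 (adjusted p = 0.000113). An antisense gene, 6330403L08Rik, overlaps Pdgfa, with at most 254 counts in a library on its own strand. Only reads on the strand of Pdgfa were counted here.

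At d5 Pdgfa was at 37.3, 32.6 and 32.4 CPM in Ctrl+vehicle, at 33.5, 37.9 and 35.3 CPM in Ctrl+FGF2 and at 34.4, 29.0 and 36.9 CPM in Y/T dKD+FGF2. All 3 groups overlapped, and no comparison passed. FGF2 gave a log2 fold change of 0.079 (adjusted p = 0.471, 95% interval -0.10 to 0.26) and the knockdown -0.10 (adjusted p = 0.393, 95% interval -0.28 to 0.08). The FGF2 effect was lower at d5 than at d2.5 by a log2 difference of -0.28 (SE 0.10, adjusted p = 0.016). This call was lost with upper-quartile scaling (-0.19, adjusted p = 0.103) and without Ctrl+vehicle replicate 1 of d5 (-0.21, adjusted p = 0.0664).

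Pdgfb (ENSMUSG00000000489.7, chromosome 15, 79995874 to 80014977, minus strand), whose product binds both receptor chains, was the least abundant of the 6 genes per kb of exon. At d2.5 it had 6, 2 and 3 counts in Ctrl+vehicle, against 16, 10 and 13 in Ctrl+FGF2 and 7, 14 and 15 in Y/T dKD+FGF2. At d5 it had 4, 1 and 3 counts, 27, 25 and 15 counts, and 27, 24 and 16 counts in the same order. Every library with FGF2 was thus above every vehicle library of its day, and the knockdown libraries overlapped those of Ctrl+FGF2. Mean levels were 0.258 ± 0.144, 0.908 ± 0.202 and 0.951 ± 0.325 CPM at d2.5 and 0.252 ± 0.160, 1.95 ± 0.571 and 1.97 ± 0.334 CPM at d5.

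The rise of Pdgfb with FGF2 was called on both days. It was 3.51-fold at d2.5 (log2 fold change 1.78, SE 0.45, adjusted p = 0.00099) and 7.77-fold at d5 (2.97, SE 0.43, adjusted p = 2.15e-05). The sums of 39 against 11 counts and of 67 against 8 counts set 95% intervals for these ratios from 1.77 to 7.61 and from 3.73 to 18.7, which cover counting error only. A larger effect at d5 was not shown, since the difference between days was 1.18 with an SE of 0.75 (adjusted p = 0.18). The knockdown gave 0.065 and 0.022 (adjusted p = 0.92 and 0.965), with 95% intervals from -0.64 to 0.77 and from -0.54 to 0.59. Against Ctrl+vehicle, Y/T dKD+FGF2 was higher on both days (1.84 and 2.99, adjusted p = 0.000746 and 2.45e-05).

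**Figure D2:**
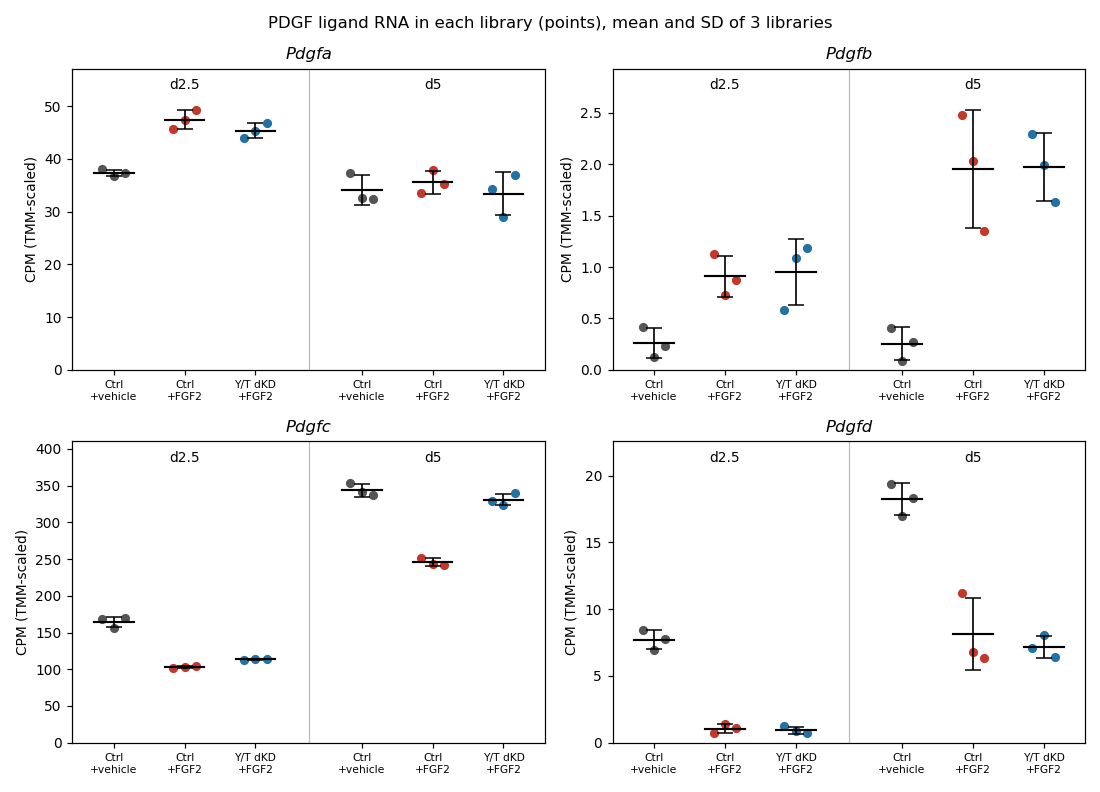
TMM-scaled CPM (vertical axes from 0) of Pdgfa, Pdgfb, Pdgfc and Pdgfd in each of the 18 libraries, by group and day. Points are libraries, horizontal lines are means and bars are the SD of 3 libraries. On each day Pdgfd was lower and Pdgfb higher in the 2 groups with FGF2 than in Ctrl+vehicle, and Pdgfc in Y/T dKD+FGF2 at d5 overlapped Ctrl+vehicle.

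Pdgfra (ENSMUSG00000029231.15) lies on the plus strand of chromosome 5, at 75152292 to 75198215, and encodes the receptor chain for PDGF-A and PDGF-C. Its response to FGF2 had opposite signs on the 2 days. At d2.5 it was at 123, 113 and 119 CPM in Ctrl+vehicle, at 85.4, 88.6 and 88.3 CPM in Ctrl+FGF2 and at 88.4, 84.9 and 87.4 CPM in Y/T dKD+FGF2. Both FGF2 groups lay below vehicle and overlapped each other. FGF2 lowered the mean from 118 ± 5.02 to 87.4 ± 1.74 CPM (log2 fold change -0.45, SE 0.04, adjusted p = 2.77e-11). The knockdown mean was 86.9 ± 1.81 CPM (-0.018, adjusted p = 0.80, 95% interval -0.11 to 0.07). Y/T dKD+FGF2 was below Ctrl+vehicle by -0.47 (adjusted p = 1.57e-11).

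At d5 Pdgfra was at 337, 384 and 357 CPM in Ctrl+vehicle, at 586, 575 and 569 CPM in Ctrl+FGF2 and at 406, 435 and 413 CPM in Y/T dKD+FGF2. The 3 groups did not overlap, with Ctrl+FGF2 the highest and the knockdown between the other two. FGF2 raised the mean from 359.6 ± 23.6 to 577 ± 8.52 CPM, or to 160.4% (log2 fold change 0.69, SE 0.04, adjusted p = 6e-10). The knockdown lowered it to 418 ± 15.02 CPM, 72.5% of Ctrl+FGF2 (-0.47, SE 0.04, adjusted p = 1.29e-07). Y/T dKD+FGF2 stayed above Ctrl+vehicle by 0.22 (SE 0.04, adjusted p = 0.000367). The FGF2 effect differed between days by 1.12 on the log2 scale (SE 0.06, adjusted p = 1.07e-15) and the knockdown effect by -0.45 (SE 0.06, adjusted p = 3.17e-06).

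**Figure D3:**
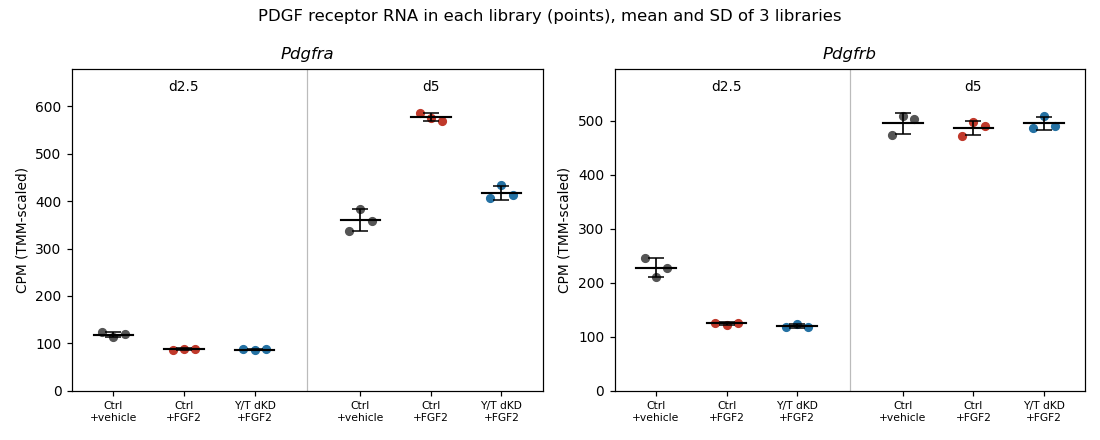
TMM-scaled CPM (vertical axes from 0) of Pdgfra and Pdgfrb in each of the 18 libraries, by group and day, with means and the SD of 3 libraries. At d5 the Pdgfra libraries of Ctrl+FGF2 (569 to 586 CPM) stood above those of Y/T dKD+FGF2 (406 to 435 CPM) and Ctrl+vehicle (337 to 384 CPM), while Pdgfrb overlapped across all 3 groups.

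Pdgfrb (ENSMUSG00000024620.11, chromosome 18, 61045150 to 61085061, plus strand) encodes the receptor chain bound by PDGF-B and PDGF-D. At d2.5 it was at 246, 210.5 and 227 CPM in Ctrl+vehicle, at 126, 121 and 126 CPM in Ctrl+FGF2 and at 119, 124 and 118 CPM in Y/T dKD+FGF2. Vehicle was well above both FGF2 groups, which overlapped. Pdgfrb fell with FGF2 from 228 ± 18.03 to 125 ± 2.89 CPM, or to 54.7% (log2 fold change -0.88, SE 0.04, adjusted p = 1.02e-17). The knockdown mean was 120.0 ± 3.21 CPM (-0.062, adjusted p = 0.359, 95% interval -0.16 to 0.03), which was below Ctrl+vehicle by -0.94 (adjusted p = 2.75e-18).

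At d5 Pdgfrb was at 473, 509 and 503 CPM in Ctrl+vehicle, at 472, 497 and 489.6 CPM in Ctrl+FGF2 and at 486, 509 and 491 CPM in Y/T dKD+FGF2. The 3 groups overlapped, with means of 495 ± 19.3, 486 ± 13.0 and 495 ± 11.8 CPM. FGF2 gave -0.014 (adjusted p = 0.773, 95% interval -0.09 to 0.06) and the knockdown 0.021 (adjusted p = 0.716, 95% interval -0.06 to 0.10). At this depth these intervals leave room for changes of at most about 0.10 on the log2 scale. The FGF2 effect thus differed between days by 0.84 (SE 0.06, adjusted p = 7.96e-13), and the knockdown effect by 0.08 (adjusted p = 0.423).

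Markers of mural and smooth muscle cells, which in tissue carry Pdgfrb, were summed in the same libraries. The 10 genes summed to between 188 and 259 CPM in Ctrl+vehicle at d2.5, to between 35.5 and 37.1 CPM in Ctrl+FGF2 and to between 26.6 and 29.2 CPM in Y/T dKD+FGF2. At d5 they summed to between 2047 and 2161, 2702 and 3095, and 2130 and 2292 CPM in the same order. Kcnj8 and Abcc9, channel genes that define pericytes, had at most 3 counts in every library. The sums at d5 are nearly all Acta2, the smooth muscle actin gene, with means of 2006, 2801 and 2119.5 CPM. Tagln, next in level, had means of 86.0, 84.5 and 76.1 CPM and did not share the higher level in Ctrl+FGF2. Notch3 (11.9, 17.8 and 12.7 CPM) and Mcam (3.30, 7.46 and 5.78 CPM) did. Myh11, Cnn1, Rgs5 and Des had at most 20 counts in any d5 library. With FGF2 at d5 the means of Myh11 and Cnn1 were higher than with vehicle, and those of Rgs5 and Des were lower. At d2.5 Acta2, Tagln and Notch3 were highest in Ctrl+vehicle (means 187, 10.3 and 20.5 CPM), as Col1a1, Pdgfrb, Pdgfra, Pdgfc and Pdgfd were. Mcam (2.28, 2.12 and 2.73 CPM) and Rgs5 (0.550, 0.138 and 0.793 CPM) were instead highest in Y/T dKD+FGF2 that day. Myh11, Cnn1 and Des, with at most 4 counts in a d2.5 library, had their highest means in Ctrl+vehicle. At d5 Acta2 was highest in Ctrl+FGF2, as Pdgfra was, while Pdgfrb overlapped across the groups (means 495, 486 and 495 CPM). The part of such shifts in these results was not tested. In bulk RNA, fewer cells of a type and less RNA per cell cannot be told apart.

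Levels of different genes were compared per kb of exon. In Ctrl+vehicle at d2.5 the order was Pdgfrb (41.6 CPM per kb), Pdgfc (32.4), Pdgfa (11.98), Pdgfra (11.8), Pdgfd (2.44) and Pdgfb (0.0621), where Pdgfa and Pdgfra overlapped and the other neighbors did not. In Ctrl+FGF2 at d2.5 it was Pdgfrb (22.7), Pdgfc (20.2), Pdgfa (15.2), Pdgfra (8.72), Pdgfd (0.334) and Pdgfb (0.218), with overlap of Pdgfd and Pdgfb. In Y/T dKD+FGF2 at d2.5 Pdgfc (22.3) and Pdgfrb (21.9) overlapped at the top, and Pdgfd (0.297) and Pdgfb (0.229) at the bottom.

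At d5 no neighbors overlapped in any group. In Ctrl+vehicle the order was Pdgfrb (90.4 CPM per kb), Pdgfc (67.5), Pdgfra (35.9), Pdgfa (10.9), Pdgfd (5.78) and Pdgfb (0.0605). Y/T dKD+FGF2 had the same order, with Pdgfc at 65.0 and Pdgfra at 41.7. In Ctrl+FGF2, Pdgfra (57.5) stood above Pdgfc (48.3). Pdgfb was last in all 6 groups. These orders, and the ratios and shares below, depend on the length used. That length was of all annotated exons of a gene merged, 10.02 kb for Pdgfra and 5.478 kb for Pdgfrb. In CPM, without length, Pdgfra (577) stood above Pdgfrb (486) in Ctrl+FGF2 at d5.

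**Figure D4:**
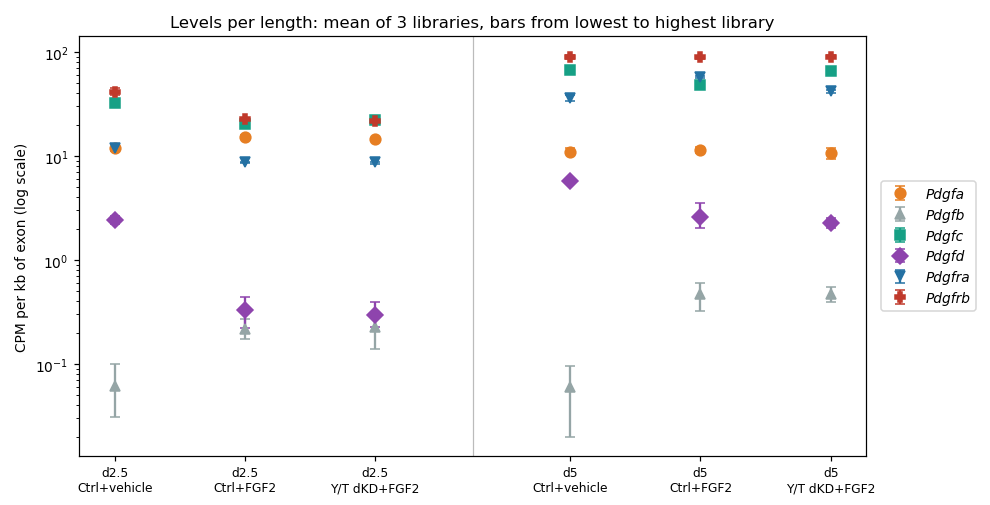
Levels of the 6 genes in CPM per kb of exon (vertical log axis) in the 6 groups. Symbols are means of 3 libraries and bars run from the lowest to the highest library. Pdgfrb was at or near the top in every group, and Pdgfb was at the bottom, with Pdgfra above Pdgfc only in Ctrl+FGF2 at d5.

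The balance of the receptors shifted with these changes. The ratio of Pdgfra to Pdgfrb, per kb, was 0.284 ± 0.0107 at d2.5 with vehicle. With FGF2 it was 0.384 ± 0.0148 in control cells and 0.396 ± 0.0181 in knockdown cells. In the same order at d5 it was 0.397 ± 0.0138, 0.649 ± 0.0261 and 0.461 ± 0.00558. At d2.5 the ratio in both FGF2 groups was above vehicle in every library, although the RNA of both receptors was lower. At d5 the 3 groups did not overlap. With 3 libraries in a group an exact two-sided test cannot go below p = 0.1, and these ratios are given as descriptions.

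The RNA of the 4 ligands was mostly Pdgfc. Its share of the summed ligand level per kb was 69.1 ± 0.558% at d2.5 with vehicle, against 56.2 ± 0.675% with FGF2 and 59.7 ± 0.578% with FGF2 and the knockdown. In the same order it was 80.1 ± 0.821%, 77.0 ± 0.617% and 82.9 ± 0.796% at d5. Per kb, Pdgfa was at 0.371 ± 0.0125 of Pdgfc in Ctrl+vehicle and at 0.754 ± 0.0201 in Ctrl+FGF2 at d2.5. The summed receptor level was 53.4 ± 3.78 CPM per kb in Ctrl+vehicle and 31.5 ± 0.450 in Ctrl+FGF2 at d2.5, and 126 ± 5.72 and 146 ± 1.75 at d5. The summed ligand level was 46.9 ± 1.78 and 35.9 ± 0.842 at d2.5, and 84.3 ± 2.91 and 62.7 ± 1.57 at d5. With FGF2 the ligand sum was therefore lower on both days, and the receptor sum was lower at d2.5 and higher at d5.

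**Figure D5:**
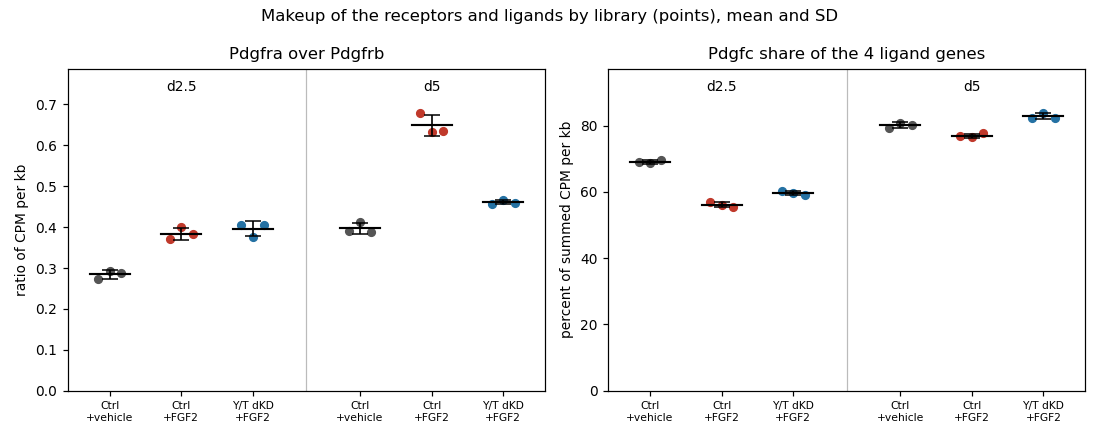
Ratio of Pdgfra to Pdgfrb (left) and share of Pdgfc in the summed level of the 4 ligand genes (right), both from CPM per kb, in each library by group and day, with means and the SD of 3 libraries. The ratio was highest in Ctrl+FGF2 at d5 (mean 0.649), and the Pdgfc share was lowest in Ctrl+FGF2 at d2.5 (mean 56.2%).

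Levels at d5 and d2.5 are set side by side without a test, since each day is a labelled batch of its own and day and batch cannot be told apart. Pdgfra at d5 was 3.04-fold its d2.5 level with vehicle, 6.60-fold with FGF2 and 4.81-fold with FGF2 and the knockdown. Pdgfrb stood at 2.17-fold, 3.90-fold and 4.13-fold, and Pdgfc at 2.09-fold, 2.39-fold and 2.92-fold. Pdgfd was at 2.37-fold in Ctrl+vehicle and at 7.71-fold and 7.67-fold in the FGF2 groups. Pdgfa was instead at 0.912, 0.749 and 0.737 of its d2.5 level, with overlap of the days in Ctrl+vehicle only. The days of Pdgfb overlapped in Ctrl+vehicle and were 2.15-fold and 2.08-fold apart with FGF2.

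Genes that act on PDGFs outside the cell were counted next. The counts of this list and those after it are to be read against all genes tested, of which FGF2 called 33.5% higher and 34.1% lower at d2.5 and 23.5% and 23.7% at d5, and the knockdown 10.8% and 13.6% at d2.5 and 15.6% and 16.1% at d5. The list of proteins that bind PDGFs or their receptors held 6 genes, of which 5 were tested. All 5 were lower with FGF2 at d2.5 (median log2 fold change -1.16, against 0.0022 over all genes tested), and at d5 2 were higher and 1 was lower (median 0.0034, against 0.016). Sparc, a matrix protein that binds PDGF-B and keeps it from its receptor, fell on both days (log2 fold change -1.46, adjusted p = 1.06e-28, and -1.05, adjusted p = 3.18e-13). Pdgfrl, a receptor-like gene without a kinase, rose with FGF2 at d5 (0.73, adjusted p = 4.5e-07) and was lower after the knockdown (-0.72, adjusted p = 9.49e-07), in comparisons that share the Ctrl+FGF2 libraries. At d2.5, where it was scarce, Pdgfrl was lower with FGF2, at 1 to 3 counts against 23 to 41 in Ctrl+vehicle (adjusted p = 3.92e-10).

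With the knockdown at d2.5, 1 gene of that list was higher and 2 were lower (median -0.076, against 0.0013 over all genes), and at d5 3 were higher and 2 were lower (median 0.27, against 0.0034). Nrp1, a co-receptor, was higher at d2.5 (0.36, adjusted p = 1.77e-05) and lower at d5 (-0.24, adjusted p = 0.000445). Lrp1, an endocytic receptor that associates with the Pdgfrb product, was lower at d2.5 (-0.43, adjusted p = 8.32e-10) and higher at d5 (0.39, adjusted p = 1.07e-05).

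Of the 6 genes for proteases that process PDGFs, 4 were tested. With FGF2, 1 was higher and 3 were lower on each day (medians -0.32 and -0.51), against 33.5% higher and 34.1% lower of all genes at d2.5 and 23.5% and 23.7% at d5. Plat, the tissue plasminogen activator that frees PDGF-C from its inhibitory domain, rose at d2.5 (1.15, adjusted p = 1.69e-11) and fell at d5 (-0.77, adjusted p = 2.05e-09). Pcsk6, a proprotein convertase, fell at d2.5 (-1.09, adjusted p = 5.08e-05), and Furin, the best known member of that class, fell at d2.5 (-0.44, adjusted p = 9.22e-12) and rose at d5 (0.73, adjusted p = 3.1e-09). The knockdown called 1 higher and 1 lower at d2.5 (median 0.16) and 1 lower at d5 (median -0.17). Plat was higher at d2.5 (0.51, adjusted p = 3.87e-05), and Furin was lower on both days (-0.22, adjusted p = 0.000156, and -0.37, adjusted p = 1.72e-05).

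All 22 genes for signaling adaptors and effectors below the receptors were tested, and their medians lay near those of all genes. With FGF2, 8 were higher and 6 lower at d2.5 (median -0.0098), and 9 were higher and 6 lower at d5 (median 0.074). Rasa1, a GTPase-activating protein that turns Ras off, rose at d2.5 (1.71, adjusted p = 1.18e-26) and fell at d5 (-0.30, adjusted p = 2.8e-05). Fyn, a Src-family kinase, fell on both days (-1.03, adjusted p = 1.03e-17, and -0.64, adjusted p = 6.77e-08).

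With the knockdown, 6 of the 22 were higher and 6 lower at d2.5 (median 0.027), and 3 were higher and 4 lower at d5 (median -0.045). Src, the kinase that gives that family its name, was lower at d2.5 (-0.44, adjusted p = 1.29e-07). Rasa1 was higher (0.40, adjusted p = 2.31e-06) and Akt2 lower (-0.45, adjusted p = 1.41e-07) at d5.

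All 8 negative regulators, phosphatases and ubiquitin ligases that end receptor signaling, were tested. With FGF2, 4 were higher and 3 lower at d2.5 (median 0.16), and 1 was higher and 3 were lower at d5 (median -0.051). The receptor phosphatase gene Ptprj rose at d2.5 (1.44, adjusted p = 2.84e-11). The ubiquitin ligase gene Cblb fell at d2.5 (-0.71, adjusted p = 1.76e-14) and rose at d5 (0.27, adjusted p = 0.000165). The knockdown called 3 higher and 0 lower at d2.5 (median 0.11), where 10.8% of all genes were higher and 13.6% lower, and 2 higher and 1 lower at d5 (median 0.041), where 15.6% and 16.1% were. The phosphatase gene Ptpn12 was higher at d2.5 (0.20, adjusted p = 0.000412) and Cbl at d5 (0.55, adjusted p = 1.02e-06). Acp1 was lower at d5 (-0.23, adjusted p = 0.0335), a call that was lost with DESeq2 (adjusted p = 0.122) and without any of 4 of the 9 libraries, namely Ctrl+FGF2 replicates 1 and 2 and Y/T dKD+FGF2 replicates 1 and 3 (adjusted p from 0.0544 to 0.167).

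Of the 6 genes for related receptors and their ligands, 4 were tested. FGF2 called 0 higher and 1 lower at d2.5 (median -0.0021) and 2 higher and 0 lower at d5 (median 0.18). The knockdown called 1 lower at d2.5 and 2 lower at d5 (medians -0.42 and -0.66). These medians rest partly on low counts. In Y/T dKD+FGF2, Csf1r had 0 to 2 counts at d2.5 and 6 to 10 at d5, and Flt3l 9 to 12 and 3 to 8. Kitl, the ligand of Kit, rose with FGF2 at d5 (0.48, adjusted p = 3.92e-08) and was lower after the knockdown on both days (-0.28, adjusted p = 7.6e-05, and -0.72, adjusted p = 5.14e-10).

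The genes whose log2 CPM followed each family member most closely over the 18 libraries were found among 11731 genes, as a description. These libraries share 2 days and 3 groups, so a high Pearson r is reached by many genes. For Pdgfra they were Pxk (r = 0.998), Oaz2 (0.995), a regulator of polyamine synthesis, and Gabarapl1 (0.995), an autophagy gene. For Pdgfrb they were Fcgrt (0.998), the neonatal Fc receptor gene, Ttc28 (0.997) and 1810058I24Rik (0.997). For Pdgfc they were Tceal9 (0.994), Rell1 (0.993) and Dnajb9 (0.992), an endoplasmic reticulum chaperone gene. For Pdgfd they were Surf4 (0.990), a cargo receptor of the secretory path, Tmem117 (0.990) and P3h1 (0.981), a collagen hydroxylase gene. Pdgfa was matched less closely, by Epb41 (0.947), Gm5844 (0.936) and Itih2 (0.935).

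Among the family members themselves, r over the 18 libraries was 0.972 for Pdgfc and Pdgfrb and 0.961 for Pdgfra and Pdgfrb. Pdgfa had r between -0.89 and -0.81 with the other 4. These r values span both days, and so include the difference between days. Within d5, FGF2 gave log2 fold changes of 0.69 for Pdgfra, -0.47 for Pdgfc and -0.014 for Pdgfrb. Pdgfb was left out because its mean level was under 1 on the log2 CPM scale.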

How the data were processed

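Poly(A) RNA of O9-1 cells was sequenced in 18 libraries. For each library the authors deposited the gene counts as counted, with no scaling. Per the labels, the processing used FastQC, STAR, Picard, featureCounts and mm10, with no role or version given, and the count layout is that of STAR. The column of the strand with 96.0% to 96.6% of stranded counts was used. Reads on no gene (27.0% to 34.4% of a library) were left out, reads on several places among them. GENCODE M21 (GRCm38) held 55154 of the 55335 identifiers, the 6 PDGF genes among them. Library totals are given in the report. No 2 libraries were identical.

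The quasi-likelihood F-test of edgeR 4.0.16 (R 4.3.3, filterByExpr, TMM) was fitted to the 9 libraries of each day. Whether an effect differed between days was tested as an interaction over all 18 libraries (14198 genes). The SE is the absolute log2 fold change over the square root of F, and the 95% interval uses the t distribution of the fit. Scripts were tested on simulated data. CPM levels use 1 scaling of all 18 libraries, so ratios of means can differ slightly from fitted changes. Promoter windows came from RefSeq (GRCm38.p6). Levels per kb use the merged length of all exons of a gene in GENCODE.

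The 6 genes, the pathway and marker lists and the tests were chosen with earlier results of these data known. Named by rule were the 6 genes, the siRNA targets, from each pathway list the called gene with the largest change in each direction (mean log2 CPM of at least 1) for FGF2 and for the knockdown, and the 3 genes most like each member. Some genes taken by this rule are not reported here. Alternatives were DESeq2 1.42.0, other scaling factors (RLE or upper-quartile), another filter (none, or 10 counts in each library), a replicate block, unstranded counts, only the 2 groups compared, all 18 libraries in 1 fit, and leaving out each library.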

Additional observations from a re-analysis of the deposited data

Results flagged for a closer look

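The effects below differed between d2.5 and d5 by the interaction test of edgeR (effect at d5 minus effect at d2.5, log2 scale). For FGF2 against vehicle these were Pdgfa (-0.28), Pdgfc (0.20), Pdgfd (1.69), Pdgfra (1.12) and Pdgfrb (0.84). For the knockdown against Ctrl+FGF2 they were Pdgfc (0.29) and Pdgfra (-0.45). For FGF2, a difference of this kind passed for 60.9% of all genes tested, and for the knockdown for 20.9%. Each day is a labelled batch, so a difference between days and one between batches cannot be told apart.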

How the results depend on the processing

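Of 563 alternative values for the 29 called changes of the 6 PDGF genes, 560 kept their direction and an adjusted p under 0.05, and 3 kept the direction only (Pdgfc in the knockdown at d2.5 and Pdgfa in the FGF2 difference between days, as given in the report). Of 648 alternative values for 36 changes of other genes taken by the rule, 643 stayed called and 5, all of Acp1, did not. Leaving out 1 library at a time gave 0 to 1 of the 6 genes called for the knockdown at d2.5, with 0 without Ctrl+FGF2 replicate 1, and 4 to 5 for the FGF2 difference between days. Requiring at least 10 counts in every library left Pdgfb untested, and Pdgfd untested at d2.5.

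Every change of sign was in a change that was not called. Pdgfrb with FGF2 at d5 was 0.012 with upper-quartile factors. Pdgfrb at d5 in Y/T dKD+FGF2 set against Ctrl+vehicle was -0.0023 with RLE factors and with DESeq2 and -0.00024 with all 18 libraries in 1 fit. The knockdown difference between days of Pdgfd was -0.0093 with upper-quartile factors and -0.0056 without a filter. Leaving out 1 library gave ranges on both sides of 0 for knockdown changes of Pdgfb (-0.12 to 0.31 at d2.5, -0.18 to 0.21 at d5, -0.29 to 0.15 between days), of Pdgfd (-0.42 to 0.054, -0.31 to 0.13 and -0.23 to 0.31), of Pdgfrb at d5 (-0.0017 to 0.037) and of Pdgfa between days (-0.10 to 0.063). It did so too for Pdgfrb with FGF2 at d5 (-0.045 to 0.0073) and, against Ctrl+vehicle at d5, for Pdgfrb (-0.023 to 0.018) and Pdgfa (-0.094 to 0.067) in Y/T dKD+FGF2. With upper-quartile factors the median FGF2 difference between days over all genes was 0.12, against 0.03 with TMM.

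Deviations of libraries with the same replicate number correlated with r between -0.07 and 0.11, and those of other pairs between -0.12 and 0.09. At d5 the same-numbered pairs of Ctrl+vehicle and Ctrl+FGF2 had r of 0.097, 0.115 and 0.015, and other pairs of these groups between -0.12 and 0.021. Such small values, from deviations within groups of 3 libraries, cannot settle whether replicate numbers are paired. With the replicate number as a block, 9180 genes were called for FGF2 and 3226 for the knockdown at d2.5, and 6352 and 4354 at d5, against 9243, 3345, 6278 and 4220, and the count of PDGF genes called was the same in each comparison. Low counts limit Pdgfb on both days and Pdgfd at d2.5.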
